A study of Mus musculus with 6 samples.

Results

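The genes described here are 48 mouse genes of the interferon response and of MHC class I antigen presentation, taken from a list of names. They comprised 4 interferon receptor genes, 5 transcription factors, 3 cytoplasmic RNA sensors, 25 effectors and 11 genes of the class I pathway. All 48 were rows of the count tables, which listed 55341 genes, and 47 of them were among the 16343 genes that passed the filter on low counts. The exception was Mx1, a GTPase that restricts viruses, with counts of 9, 7 and 113 in DMSO replicates 1 to 3 and of 10, 9 and 178 in GSK-126 replicates 1 to 3.

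Poly(A) RNA-seq was performed on 6 samples of cerebellar granule neurons (CGNs) from mice. Per the labels, 3 libraries were treated with DMSO, the vehicle, and 3 with GSK-126. This small molecule blocks the catalytic activity of EZH2, the enzyme of Polycomb repressive complex 2 that trimethylates histone H3 lysine 27. Besides the agent, the labels held replicate numbers from 1 to 3 and cerebellum as the source, but no dose and no day. In the study's methods, granule neuron precursors were isolated on Percoll from early postnatal CD-1 IGS mice, an outbred stock, of both sexes. Cytosine arabinoside was added to all cultures against dividing non-neuronal cells, the inhibitor was given once, and a replicate was a culture from the pooled cerebella of litters. No genetic change is described for either group. The comparison asked whether inhibiting EZH2 raised interferon and class I genes in these postmitotic neurons, as has been reported in dividing cells.

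The libraries held 8058760 to 12047837 counts over genes, so that 3 counts, the floor used here, equalled 0.249 to 0.372 CPM (counts scaled to library size, here with TMM factors). All 8 granule neuron markers were present in every library, with a summed level of 2815 to 5578 CPM. Markers of other cells were present too: the 6 astrocyte markers summed to 1995 to 6771 CPM, the 5 fibroblast markers to 6698 to 9749 CPM, the 10 microglia markers to 309 to 793 CPM, the 6 oligodendrocyte lineage markers to 404 to 746 CPM, and the 8 endothelial and mural markers to 174 to 341 CPM. These are bulk libraries, in which fewer cells of a type and less RNA per cell cannot be told apart.

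Interferons are secreted proteins that signal through a pair of receptors to the JAK kinases and the STAT transcription factors. Type I interferon, sensed through Ifnar1 and Ifnar2, leads a complex that holds Stat2 and Irf9 to a response element in the promoters of interferon-stimulated genes; interferon gamma, sensed through Ifngr1 and Ifngr2, acts through STAT dimers and Irf1. The products include proteins that block viral entry, translation and budding, and the machinery that cuts proteins into peptides, carries them into the endoplasmic reticulum and displays them on MHC class I. Neurons are known for low class I levels.

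The promoters of the effector genes carried the letters of that response element more often than promoters at large, and the stretches below are shown because they hold it. RefSeq promoter windows (GRCm38.p6, from 250 bases before to 50 bases after the start, 300 bases in all) were found for 38 of the 48 genes. The core of the interferon-stimulated response element, 2 copies of GAAA set apart by 2 bases of any kind, occurred on either strand in 17 of these 38 genes (44.7%), against 1079 of all 27025 genes with a window (3.99%). This core was found in 12 of 18 effectors (66.7%), in 2 of 2 sensors, in 1 of 5 transcription factors, in 2 of 9 class I genes (22.2%) and in 0 of 4 receptors. The letters TTCNNNGAA, the core that STAT dimers bind, occurred in 12 of 38 (31.6%), against 9.55% of all genes; matches to the 2 motifs could overlap. A match describes the letters only. The 6 stretches below are given on the strand of the gene, 5′ to 3′, and the capitals mark this core or its reverse complement (TTTC in place of GAAA), with overlapping matches run together. Isg15 lay at chr4:156200855-156200916 (minus strand), Ifit1 at chr19:34640765-34640833 (plus), Ifit3 at chr19:34583353-34583436 (plus), Rsad2 at chr12:26456543-26456592 (minus), Bst2 at chr8:71537567-71537622 (minus) and B2m at chr2:122147528-122147577 (plus). Each stretch lay wholly before the annotated start, within 176 bases of it.
Isg15: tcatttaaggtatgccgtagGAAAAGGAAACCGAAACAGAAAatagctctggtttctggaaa
Ifit1: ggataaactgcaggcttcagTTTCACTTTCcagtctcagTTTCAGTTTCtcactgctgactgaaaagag
Ifit3: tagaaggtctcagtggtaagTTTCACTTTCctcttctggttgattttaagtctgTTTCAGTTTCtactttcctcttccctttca
Rsad2: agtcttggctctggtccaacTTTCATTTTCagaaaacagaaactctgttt
Bst2: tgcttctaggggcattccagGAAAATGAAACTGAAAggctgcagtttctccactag
B2m: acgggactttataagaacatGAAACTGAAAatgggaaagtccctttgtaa

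The levels of the 48 genes per length spanned a wide range in the DMSO libraries. B2m, the invariant light chain of class I, was highest at 393 ± 157 CPM per kilobase of exon (SD, n = 3), above 99.8% of the genes tested. Ifitm3, a membrane protein that blocks viral entry, followed at 310 ± 133, and the difference between them was within the SD of each. The classical class I heavy chains H2-D1 and H2-K1 stood at 94.3 ± 55.6 and 55.9 ± 25.9 CPM per kilobase, with Bst2, the tether of budding virus, between them at 67.8 ± 54.3; these 3 were not separated beyond their spread. The median of the 47 genes tested was 8.46 CPM per kilobase and that of all genes tested was 6.37. The lowest were Nlrc5, the transactivator of class I genes, at 1.03 ± 0.402, and Isg20, an exonuclease, at 0.920 ± 0.705 CPM per kilobase. For many effectors the SD was about as large as the mean, as for Isg15 at 44.5 ± 48.5 CPM per kilobase, and the values of single libraries given further on show replicate 3 apart from the others.

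None of the 47 genes tested passed for GSK-126 against DMSO at an adjusted p-value of 0.05, the threshold for a call, in the fits with and without the replicate number. In the edgeR quasi-likelihood fit with treatment as the only term, 0 of the 47 genes were called (lowest adjusted p = 0.841), where 0 of 16343 genes did (0%). At an unadjusted p under 0.05 there were 0 of the 47, against 981 genes in all (6%). This fit leaves differences between replicate numbers, called in 39 of the 47 genes as given below, in the spread within groups. That limits what the comparison with all genes can show about the treatment. Taking the replicate number as a block, because the libraries deviated together by number, 597 genes passed (3.65%), 365 of them higher in GSK-126 (2.23%). Of the 47 genes, 0 passed in this fit (lowest adjusted p = 0.130), and DESeq2, with or without the block, and limma-voom also called 0 of them. At an unadjusted p under 0.05 in the blocked fit, 5 of 47 were higher and 0 lower, against 9.28% and 7.46% of all genes.

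Small positive differences prevailed among the 47 genes, without a call. In the blocked fit, 37 had a positive and 10 a negative log2 fold change, with a median of 0.14 and a range from −0.23 to 0.56; the median over all genes tested was within 0.01 of 0. In the fit without the block the median of the 47 genes was 0.18, and it was 0.76 when DMSO replicate 3 was left out and −0.45 when GSK-126 replicate 3 was. Within pairs of one replicate number, the median log2 ratio of the 47 genes was 0.28, 0.13 and 0.05 for replicates 1, 2 and 3. GSK-126 was higher in 3 of 3 pairs for 12 genes (25.5%), against 19.7% of all genes, and lower in 3 of 3 for 0 genes, against 19.3%. The groups overlapped in CPM for each of the 47 genes, and they did not overlap for 10.9% of all genes. Where both libraries of 1 replicate number lie above the other 4, the groups must overlap whatever the treatment did. This was so for replicate 3 in 37 of the 47 genes and for replicate 1 in 2. The overlap therefore does not bear on the treatment in these genes. The upper bound of the 95% interval of the fold lay below 2-fold for 43 of 47 genes (91.5%), against 86.1% of all genes. The 4 genes with a higher bound were Psmb9 (2.43-fold), Rsad2 (2.33-fold), Ifitm2 (2.08-fold) and Isg20 (3.04-fold).

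**Figure D1:**
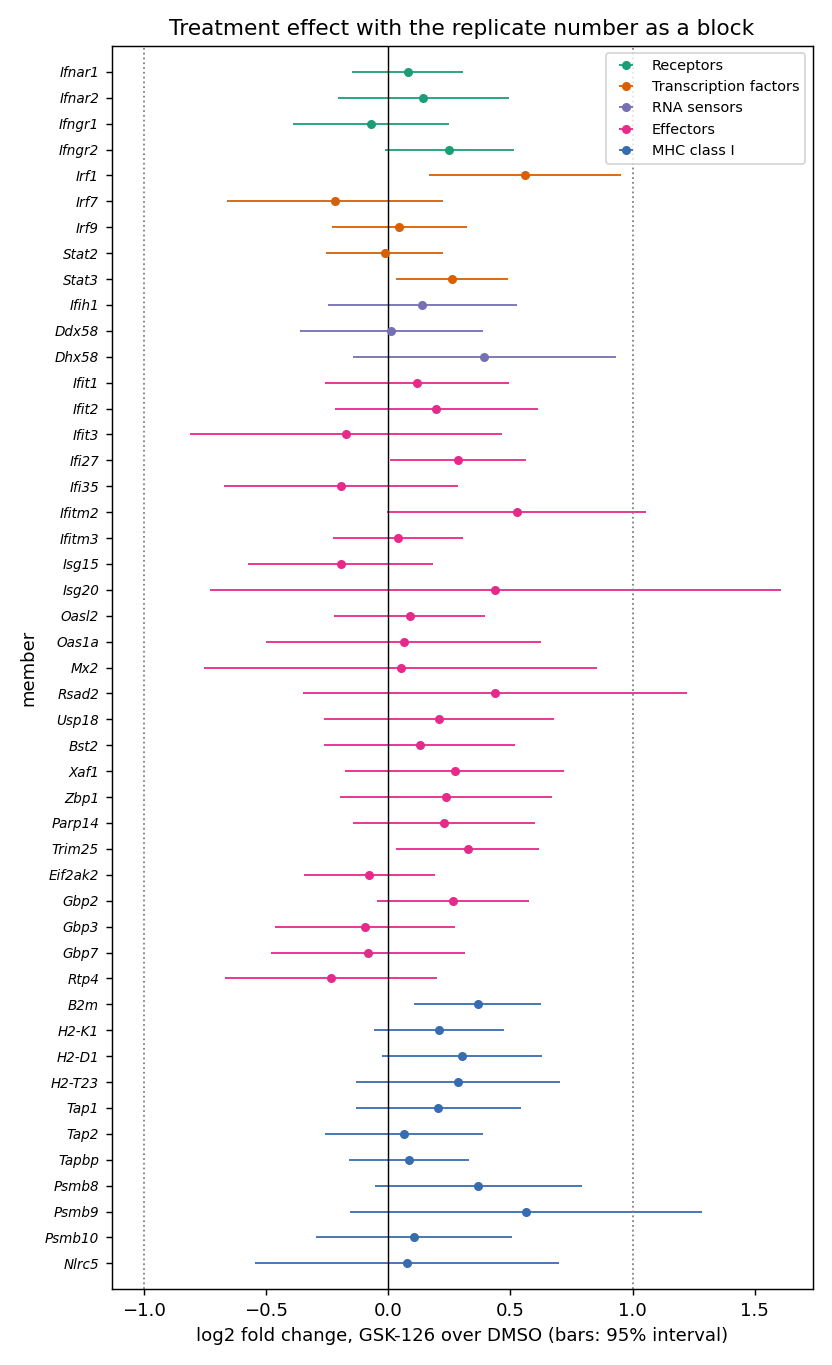
Log2 fold change of GSK-126 over DMSO for the 47 genes tested, from the blocked edgeR fit; points are estimates, bars 95% intervals, colours the roles of the genes, and dotted lines 2-fold in either direction. The intervals of 42 genes include 0, and those of Irf1, Stat3, Ifi27, Trim25 and B2m lie above it without passing the adjusted threshold.

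The receptors were measured at similar levels in every library. Ifnar1, a chain of the type I interferon receptor, had 147, 119 and 103 CPM in DMSO replicates 1 to 3 and 156, 122 and 112 CPM in GSK-126 replicates 1 to 3. Ifnar2, its partner chain, had 23.9, 24.5 and 32.5 CPM against 33.1, 23.4 and 32.9 CPM. The libraries of the groups overlapped for both genes, and the blocked log2 fold changes were 0.08 ± 0.10 (SE) and 0.14 ± 0.16. Of the exons of Ifnar2, 9.46% overlapped another gene on the same strand.

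The chains of the interferon gamma receptor also overlapped between the groups. Ifngr1, its ligand-binding chain, had 32.1, 31.0 and 30.8 CPM in DMSO and 34.4, 29.3 and 26.2 CPM in GSK-126, a blocked log2 fold change of −0.07 ± 0.14. Ifngr2, its signalling chain, had 47.5, 43.1 and 62.9 CPM in DMSO and 63.9, 47.7 and 71.1 CPM in GSK-126; it was higher in each pair, by 0.25 ± 0.12 on the log2 scale, and did not pass (edgeR adjusted p = 0.331). The 95% intervals of the 4 receptors reached at most 1.43-fold upward in this fit.

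Among the transcription factors, Irf1 and Stat3 were higher in each pair without a call. Irf1, which binds promoters of class I and other interferon gamma targets, had 13.6, 7.38 and 19.4 CPM in DMSO and 19.3, 12.4 and 26.8 CPM in GSK-126. The groups overlapped, the blocked log2 fold change was 0.56 ± 0.18, and the edgeR adjusted p was 0.130. Stat3, which mediates signalling of the interleukin 6 family, had 177, 148 and 197 CPM in DMSO and 231, 165 and 230 CPM in GSK-126, a blocked log2 fold change of 0.26 ± 0.10 (edgeR adjusted p = 0.229). Their exons overlapped a gene on the opposite strand over 3.40% and 0.756% of their length, and the strand setting of the counts was not stated.

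The factors of type I signalling followed the replicate number and were not higher in each pair. Irf1 followed the replicate number as well: 4 of the 5 transcription factors were called on it, all but Stat3. In the same 4, both replicate 3 libraries lay above the rest. Irf7, which amplifies type I interferon production, had 7.15, 6.75 and 67.9 CPM in DMSO and 5.41, 8.92 and 48.5 CPM in GSK-126. Irf9, a DNA-binding partner of Stat2, had 35.9, 34.8 and 98.9 CPM in DMSO and 35.6, 42.2 and 91.7 CPM in GSK-126. Stat2 had 68.8, 95.1 and 146 CPM in DMSO and 62.6, 93.0 and 159 CPM in GSK-126. In all 3 genes the replicate 3 library was the highest of its group under either treatment. The blocked log2 fold changes for GSK-126 were −0.22 ± 0.20, 0.05 ± 0.13 and −0.01 ± 0.11, and their 95% intervals reached at most 1.25-fold upward.

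The effectors had the same arrangement, with both replicate 3 libraries high. Isg15, a ubiquitin-like modifier, had 9.92, 15.1 and 75.9 CPM in DMSO and 11.6, 10.2 and 64.5 CPM in GSK-126. Ifit1, which binds viral RNA that lacks the host cap methylation, had 25.4, 12 and 90.6 CPM in DMSO and 19.6, 18.0 and 105 CPM in GSK-126. Rsad2, the antiviral enzyme viperin, had 5.08, 4.88 and 43.0 CPM in DMSO and 1.83, 7.35 and 96.7 CPM in GSK-126. The replicate 3 libraries of these 3 genes lay far above the other 4 in both groups, and the Rsad2 ratio of GSK-126 to DMSO was below 1 in pair 1 and above 1 in pairs 2 and 3. The blocked log2 fold changes were −0.19 ± 0.17, 0.12 ± 0.17 and 0.44 ± 0.36 (edgeR adjusted p = 0.639, 0.797 and 0.604). With replicate 1 left out, Rsad2 was called at a log2 fold change of 1.02 ± 0.18 (edgeR adjusted p = 0.00718), where 2.40% of all genes were called higher; over its other settings the adjusted p ran from 0.337 to 1.00.

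Membrane effectors differed less between libraries. Ifitm3 had 166, 151 and 314 CPM in DMSO and 212, 138 and 292 CPM in GSK-126, a blocked log2 fold change of 0.04 ± 0.12. Bst2 had 26.3, 40.1 and 117 CPM in DMSO and 45.4, 36.9 and 100 CPM in GSK-126, a change of 0.13 ± 0.18. Ifitm2, a relative of Ifitm3, had 9.0, 11.6 and 16.9 CPM in DMSO and 19.3, 10.001 and 26.1 CPM in GSK-126, and its change of 0.53 ± 0.24 was the largest positive one among the effectors. All 3 genes went in different directions in different pairs. Of the exons of Ifitm2, 40.9% overlapped another gene on the same strand, so its counts are uncertain.

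Ifit3 and Rtp4 had negative estimates. Ifit3, a partner of Ifit1, had 1.96, 9.50 and 48.4 CPM in DMSO and 0.583, 6.27 and 66.1 CPM in GSK-126, a blocked log2 fold change of −0.17 ± 0.29. Its value is uncertain because Ifit3b is a near-identical copy and multiply aligned reads were not assigned. The ratio of Ifit3b to Ifit3 counts was 5.35, 0.408 and 0.822 in DMSO and 20.7, 0.750 and 0.724 in GSK-126. The split between the copies thus differed between replicate numbers. The replicate 1 ratios, which also differed between the treatments, rested on 17 Ifit3 counts in DMSO and 7 in GSK-126. The sum of both genes was 12.5, 13.4 and 88.3 CPM in DMSO and 12.7, 11 and 114 CPM in GSK-126, which again put replicate 3 above the rest. Rtp4, a chaperone of receptor trafficking, had 11.7, 8.25 and 33.1 CPM in DMSO and 7.66, 6.99 and 34.7 CPM in GSK-126, a change of −0.23 ± 0.20, the most negative of the 47 genes.

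**Figure D2:**
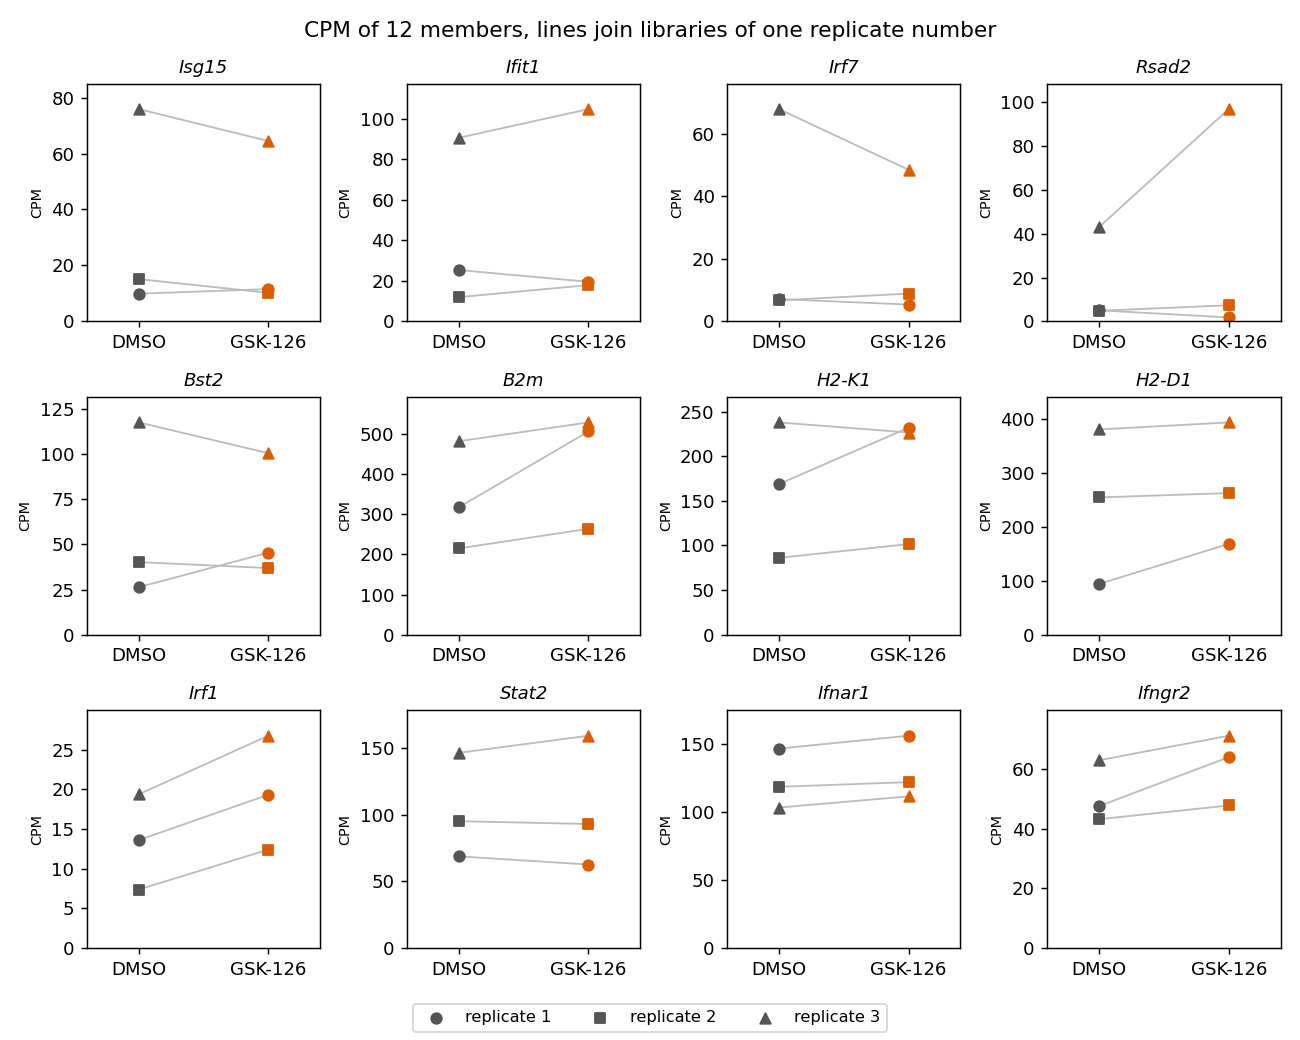
CPM of 12 of the genes in each library; grey symbols are DMSO, orange symbols GSK-126, symbol shapes the replicate numbers, and lines join the libraries of one replicate number. In Isg15, Ifit1, Irf7, Rsad2 and Bst2 both replicate 3 libraries lie above the other 4, and in B2m and H2-K1 both replicate 2 libraries are the lowest.

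All 11 class I genes had positive estimates in the blocked fit, from 0.07 to 0.56 on the log2 scale (median 0.21), and 0 of them was called. B2m had 318, 215 and 482 CPM in DMSO and 506, 264 and 529 CPM in GSK-126. It was higher in each pair, although the groups overlapped, and its blocked log2 fold change was 0.37 ± 0.12, or 1.29-fold with a 95% interval from 1.08 to 1.54 (edgeR adjusted p = 0.134). Without the filter on low counts and with the block, B2m was called (0.37 ± 0.11, edgeR adjusted p = 0.0139), where 2.45% of the 28842 genes were called higher. Over its other settings the adjusted p of B2m ran from 0.0904, in DESeq2 with the block, to 1.00.

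The heavy chains and the loading machinery showed most of their difference in pair 1. H2-K1 had 169, 86.1 and 238 CPM in DMSO and 232, 102 and 227 CPM in GSK-126, a blocked log2 fold change of 0.21 ± 0.12. H2-D1 had 94.2, 255 and 380 CPM in DMSO and 168, 263 and 394 CPM in GSK-126, a change of 0.30 ± 0.15. Their ratio depended on the replicate number: H2-D1 had 0.558, 2.96 and 1.60 counts for each count of H2-K1 in DMSO and 0.726, 2.58 and 1.74 in GSK-126. Replicate 1 therefore had more counts assigned to H2-K1, and replicates 2 and 3 more to H2-D1, under either treatment. The mice were of an outbred stock and reads were aligned to GRCm38. The part of sequence differences in this ratio was not tested. Class I genes have close relatives in the mouse genome, and reads that aligned to several of them were not assigned, so their counts are uncertain.

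Tap1, a subunit of the peptide transporter, had 37.7, 29.0 and 77.3 CPM in DMSO and 59.4, 27.0 and 79.4 CPM in GSK-126, a change of 0.21 ± 0.15. Psmb8, an immunoproteasome subunit, had 11.7, 7.88 and 28.5 CPM in DMSO and 19.9, 9.04 and 31.2 CPM in GSK-126, a change of 0.37 ± 0.19. Psmb9, the immunoproteasome subunit encoded beside Tap1, had 6.23, 6.25 and 16.5 CPM in DMSO and 20.8, 5.90 and 16.4 CPM in GSK-126. Its estimate of 0.56 ± 0.33 was the largest of the 47 genes, and its log2 ratio was 1.71 in pair 1, −0.08 in pair 2 and −0.01 in pair 3. Nlrc5 had 7.15, 6.38 and 12.6 CPM in DMSO and 9.08, 3.49 and 17.9 CPM in GSK-126, a change of 0.08 ± 0.28. The median log2 ratio of the 11 genes was 0.50 in pair 1, −0.02 in pair 2 and 0.00 in pair 3. Tap1, Psmb8 and Psmb9 are neighbours (GRCm38, GENCODE M21), with Psmb9 at chr17:34181987-34187764, Tap1 at chr17:34187553-34197225 and Psmb8 at chr17:34197721-34201454. The exons of Tap1, Psmb8 and Psmb9 overlapped genes on the opposite strand over 3.87%, 14.7% and 5.79% of their length.

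The largest differences among these genes lay between replicate numbers, within both treatments. A test of the replicate number with treatment as the other term, added after the counts had been seen, called 39 of the 47 genes (83.0%), against 1890 of all genes (11.6%). Both libraries of replicate 3 lay above the other 4 in 37 of the 47 genes (78.7%), against 8.45% of all genes. The same held for replicate 1 in 2 genes, against 9.76%, and for replicate 2 in 0 genes, against 12.8%. Mx1, not among the 47, also had its 2 highest libraries in replicate 3, at 13.4 and 20.3 CPM, and at most 1.08 CPM elsewhere; in the fit without a filter its change for GSK-126 was 0.36 ± 0.34 with the block (edgeR adjusted p = 0.927).

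**Figure D3:**
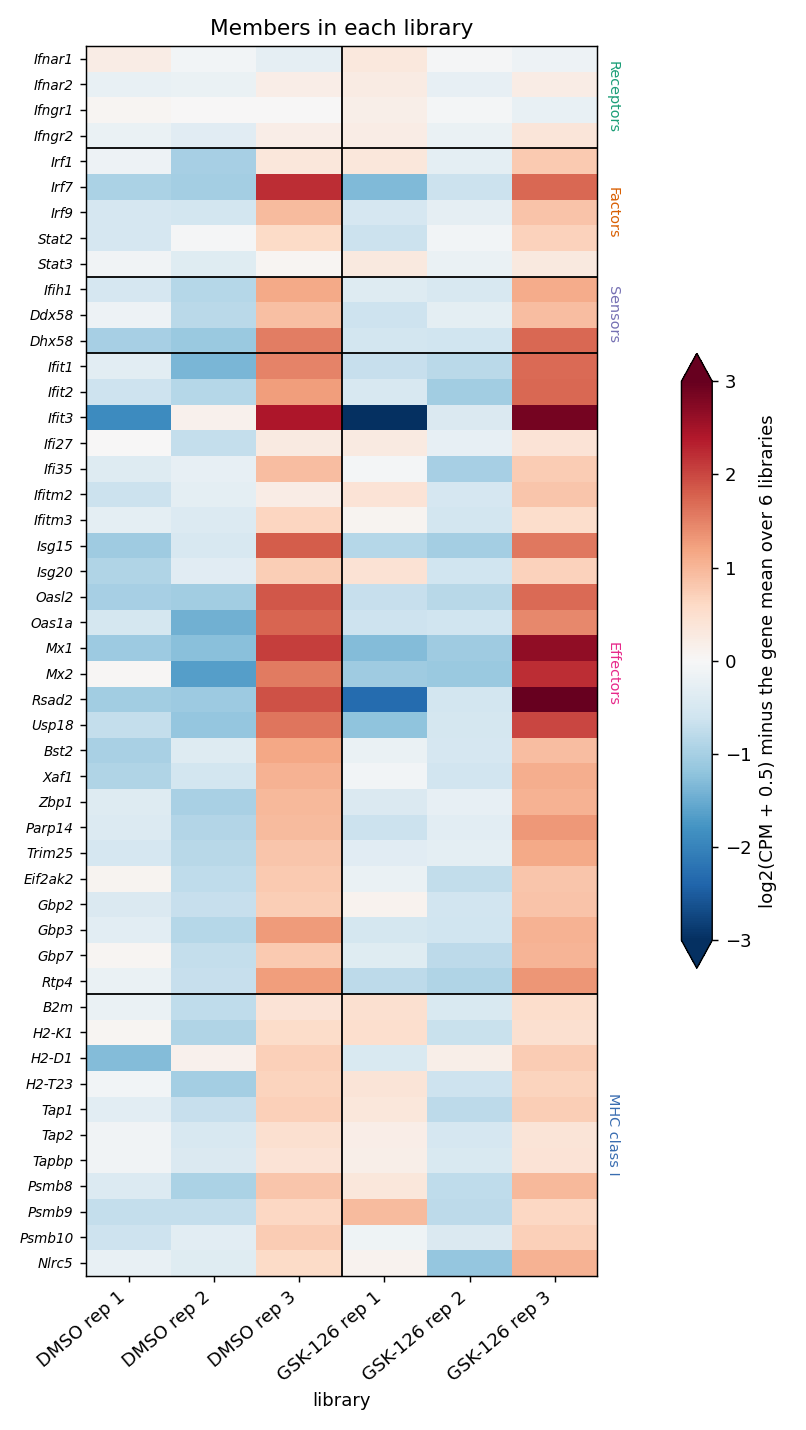
Log2(CPM + 0.5) of each of the 48 genes in each library, minus the mean of that gene over the 6 libraries; red is above and blue below the mean, and lines divide the roles and the treatments. The columns of replicate 3 are red for nearly all effectors, sensors and class I genes in both treatments, and the rows of the 4 receptors stay near white.

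The replicate difference differed in size between the roles. Replicate 3 exceeded replicate 1 and replicate 2, in the mean CPM over both treatments, by 6.53 and 5.53 times for Isg15, by 9.27 and 7.43 times for Irf7, by 20.2 and 11.4 times for Rsad2 and by 4.35 and 6.52 times for Ifit1 (edgeR adjusted p for the replicate number from 2.7e-05 to 0.000151). The 25 effectors together summed to 557, 466 and 1538 CPM in DMSO and 632, 488 and 1659 CPM in GSK-126. The 3 sensors Ifih1, Ddx58 and Dhx58, which detect double-stranded or uncapped RNA, summed to 54.4, 36.6 and 139 CPM in DMSO and 45.1, 51.8 and 143 CPM in GSK-126, and all 3 were called. In the effectors, 22 of 24 were called on the replicate number, the exceptions being Ifitm2 and Isg20.

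Class I genes had a smaller and different pattern. Of the 11 genes, 10 were called, Psmb9 being the exception, and replicate 2 was low as well as replicate 3 high. B2m was 1.23 times as high in replicate 3 as in replicate 1 and 2.11 times as high as in replicate 2, and H2-K1 1.16 and 2.47 times. H2-D1 had the other order, at 2.95 and 1.5 times. The 11 genes together summed to 807, 735 and 1490 CPM in DMSO and to 1221, 803 and 1544 CPM in GSK-126.

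The receptors and Stat3 were not called on the replicate number. The edgeR adjusted p of Ifnar1 was 0.0539, that of Ifnar2 0.330, that of Ifngr1 0.675, that of Ifngr2 0.0737 and that of Stat3 0.0809. The 4 receptors together summed to 250, 217 and 229 CPM in DMSO and to 287, 222 and 242 CPM in GSK-126. Their sum was thus not highest in replicate 3 under either treatment. Among the single receptors, Ifngr2 was highest in replicate 3 of each group, and Ifnar1 and Ifngr1 in replicate 1.

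**Figure D4:**
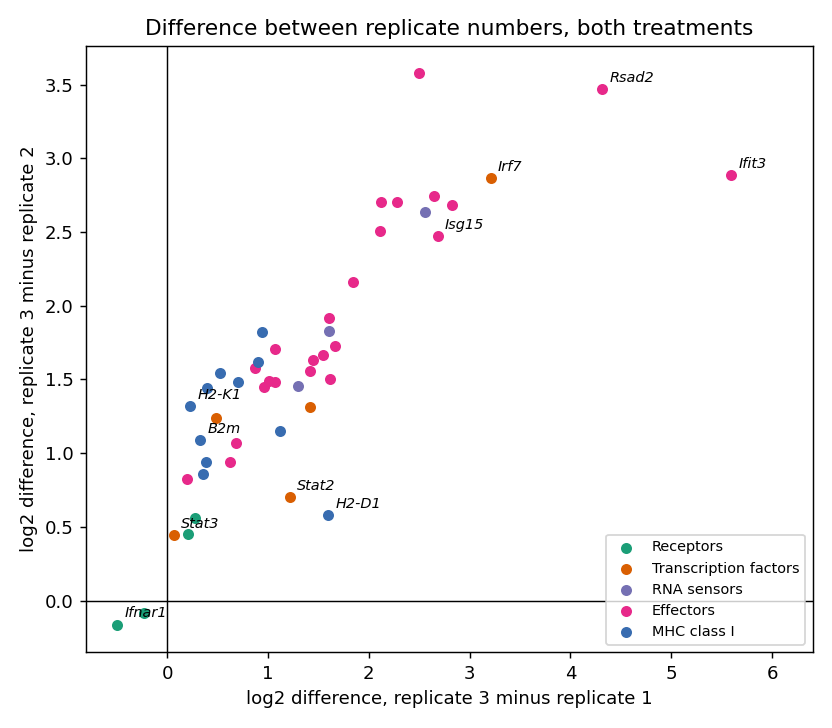
Log2 difference of replicate 3 from replicate 1 (x axis) and from replicate 2 (y axis) in the fit with treatment as the other term, for the 47 genes tested, coloured by role. Effectors reach 5.6 and 3.58, class I genes reach 1.60 and 1.82, and the 4 receptors stay between −0.50 and 0.56 on both axes. Ifit3, which lies near the far end of the x axis, has uncertain counts because of its copy Ifit3b.

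Among the other genes of the pathway, from lists drawn up by role, the replicate number was called in 48 of 86 genes tested (55.8%), against 11.6% of all genes. Both replicate 3 libraries lay above the other 4 in 52 of them (60.5%), against 8.45% of all genes. Of 108 such genes 86 passed the filter, and 0 were called for GSK-126 in either fit; 58 had positive and 28 negative estimates in the blocked fit (median 0.16). Of 40 further interferon-stimulated genes tested, 35 were called on the replicate number and 38 had both replicate 3 libraries above the other 4, and their 45 genes together summed to 980, 848 and 2169 CPM in DMSO and 1060, 969 and 2307 CPM in GSK-126. The 12 kinases, regulators and factors of JAK-STAT signalling tested had 4 calls on the replicate number (33.3%). Jak1, the kinase shared by both receptor types, had 278, 231 and 286 CPM in DMSO and 312, 272 and 299 CPM in GSK-126 and was not called (edgeR adjusted p = 0.382).

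Interferon transcripts themselves were not detected. The 12 interferon ligand genes listed, Ifnb1 and Ifng among them, had 0 counts in all 6 libraries. For assigned reads this allows up to 0.249 to 0.372 CPM per gene. Multiply aligned reads were not assigned, so the bound does not cover them. Of the 12 further sensors and adaptors tested, 4 were called on the replicate number (33.3%, against 11.6% of all genes). Irf3, the factor they activate, had 24.8, 33.0 and 25.6 CPM in DMSO and 28.3, 24.9 and 26.8 CPM in GSK-126. Irf3 was not called (edgeR adjusted p = 0.872). Of the 7 peptide-loading genes outside the list 0 were called on the replicate number, and of 11 further class I genes tested 5 were (45.5%). Both replicate 3 libraries lay above the other 4 in 1 of these 11 (9.09%), near the 8.45% of all genes. Of 7 MHC class II genes 4 were tested: Ciita, their transactivator, had 7.84, 8.63 and 3.90 CPM in DMSO and 3.91, 4.22 and 6.15 CPM in GSK-126, a blocked log2 fold change of −0.48 ± 0.36, and H2-Aa and H2-Eb1 did not pass the filter.

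Markers of other cell types, many of which also express these genes, moved with the treatment and with the replicate number. For GSK-126 in the blocked fit, 2 of 10 microglia markers rose, the complement genes C1qb (0.73 ± 0.17, edgeR adjusted p = 0.0459) and C1qc (0.70 ± 0.17, edgeR adjusted p = 0.0461). Flt1 and Pdgfrb were called higher among 7 endothelial and mural markers tested, Gdf10 among 6 astrocyte markers and Col1a1 among 5 fibroblast markers. Of these 4 cell types, 0 markers were called lower. Estimates were negative for 2 of 10 microglia, 2 of 7 endothelial and mural and 2 of 6 astrocyte markers. Of 8 granule neuron markers 4 were called lower, Gabra6, Rbfox3, Cbln1 and Neurod1, and 2 had positive estimates. Over all genes, 2.23% were called higher and 232 of 16343 lower. The summed microglia markers were 394, 309 and 529 CPM in DMSO and 793, 376 and 645 CPM in GSK-126, so that GSK-126 exceeded DMSO by 2.01, 1.22 and 1.22 times in pairs 1 to 3, beside 1.51, 1.09 and 1.04 times for the summed class I genes. Pair 1 had the highest ratio in both. It also had the highest ratio for fibroblast markers (1.46, 1.29 and 1.11) and oligodendrocyte lineage markers (1.24, 1.10 and 1.01). The ratios were 1.35, 1.38 and 1.37 for endothelial and mural markers and 1.04, 1.04 and 0.886 for astrocyte markers. For granule neuron markers they were 0.739, 0.770 and 0.728. The part of these cells in the class I values was not tested.

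Along the replicate number, both replicate 3 libraries lay above the other 4 for 2 of 10 microglia markers, Aif1 and Itgam. The same held for 1 of 7 endothelial and mural markers, Rgs5, and for 8.45% of all genes. It held for 0 markers of astrocytes, the oligodendrocyte lineage, fibroblasts and granule neurons. The summed microglia markers in replicate 3 were 0.989 times those in replicate 1 and 1.71 times those in replicate 2, where the effectors were 2.69 and 3.35 times as high. The summed astrocyte markers were 0.547 and 1.79 times, and granule neuron markers 1.13 and 0.758 times. The summed oligodendrocyte lineage markers were 0.926 and 1.47 times, endothelial and mural markers 1.18 and 1.43 times, and fibroblast markers 1.13 and 1.19 times as high. Within each treatment, replicate 2 had the lowest sum of astrocyte, microglia, oligodendrocyte lineage, and endothelial and mural markers and of class I genes. The same held for the effectors, the receptors, the transcription factors and the further interferon-stimulated genes. It did not hold in both treatments for the sensors, fibroblast markers or granule neuron markers. The part of these cells in the replicate differences was not tested, and no label says how the cultures of replicate 3 differed.

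**Figure D5:**
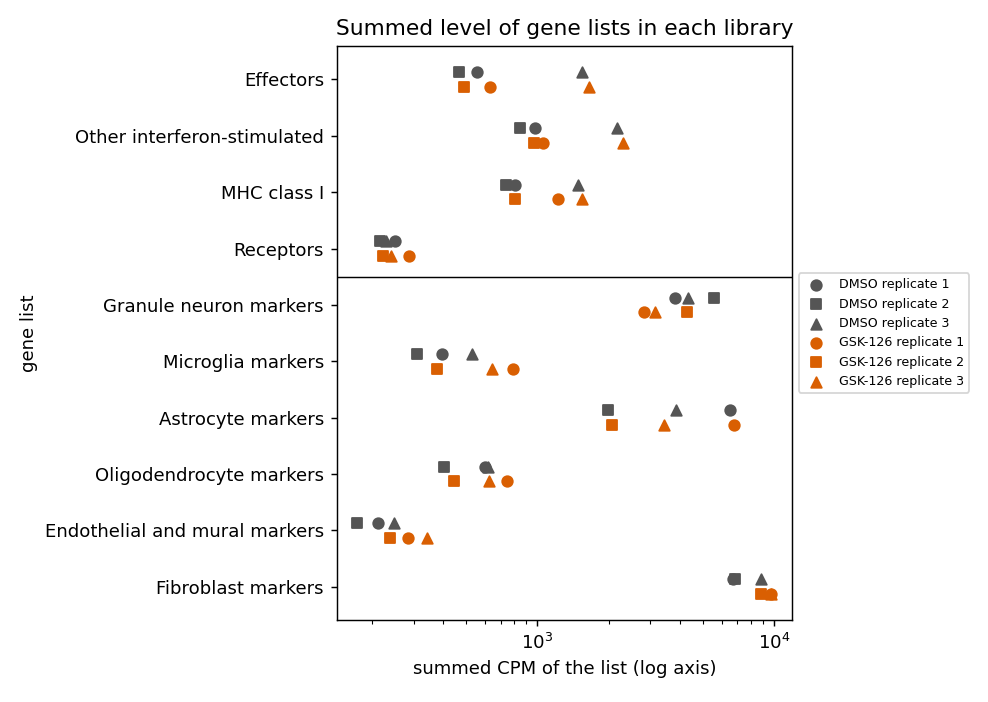
Summed CPM of gene lists in each library on a log axis; grey symbols are DMSO, orange symbols GSK-126, and symbol shapes the replicate numbers. The triangles of replicate 3 lie to the right for effectors and other interferon-stimulated genes, at 1538 to 2307 CPM, but not for receptors or for astrocyte markers.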

How the data were processed

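Total RNA of CGN cultures was poly(A)-selected and sequenced as paired ends. The authors trimmed reads with Trimmomatic 0.38, aligned them with STAR 2.7.2b to GRCm38 (mm10) and counted them over exons with HTSeq, per the labels and the study's methods; the strand setting was not given in the sources used here. The deposited values were raw counts of reads, with 1 file for each library and no normalization. Multiply aligned reads (9.54% to 10.4% of fragments) and reads over no exon (44.8% to 46.7%) were listed apart from the genes and were left out.

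The genes and lists, including the rule for named genes, were chosen with earlier results of these data known. The rule named genes by role, any gene called, and the 3 highest and 3 lowest estimates of the blocked fit. Symbols were matched to GENCODE M21 for lengths and overlaps (55341 of 55341).

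Genes were filtered with filterByExpr by group (16343 kept) and tested by quasi-likelihood in edgeR 4.0.16 (glmQLFit, R 4.3.3; TMM factors 0.994 to 1.01; legacy=TRUE) with Benjamini-Hochberg adjustment over all genes, threshold 0.05, two-sided. Intervals are 95%. The study names DESeq2 without model terms, so treatment was the only term. Same-numbered libraries deviated together from their group means (r = 0.351, 0.503 and 0.517; other combinations −0.411 to −0.01), and the study's methods describe a replicate as a culture of pooled litters, so the numbers were taken as pairs and the blocked fit is given beside. Log2 ratios within pairs used a prior count of 2. Alternatives were DESeq2 1.42.0 with and without the block, RLE factors, no filter, limma-voom (limma 3.58.1), leaving out each library, and leaving out each replicate number. The test of the replicate number and the unfiltered blocked fit were added after the data had been seen. No 2 libraries agreed within sampling noise (lowest chi-square per degree of freedom 10.7). The scripts were tested on simulated data. Counting intervals and floors cover counting error only. One further gene that the rule names is not reported here.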

Additional observations from a re-analysis of the deposited data

How the results depend on the processing

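With the replicate block 597 genes passed the threshold for GSK-126 against DMSO, against 0 without it; 59 passed in DESeq2, 670 in DESeq2 with the block, 85 without the filter on low counts and 1136 without the filter but with the block, while RLE factors and limma-voom gave 0. Leaving out a library or a replicate number gave from 0 to 704 such genes. Of the interferon and class I genes, 0 were called in all of these settings except 2, namely 1 gene (B2m) without the filter but with the block and 1 gene (Rsad2) with the block and without replicate 1, so that leaving out samples gave 0 to 1. Of the other pathway genes, likewise, 1 (Shisa5) and 1 (Rnf213) were called in the same settings, and 0 in the others. The cause was not tested.

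The median log2 fold change of the 47 genes ran from −0.45 to 0.76 when a library or a replicate number was left out, the extremes being the fits without GSK-126 replicate 3 and without DMSO replicate 3. With the block kept and a replicate number left out it stayed between 0.07 and 0.20. The replicate number was called for 39 genes with RLE factors and in DESeq2, 40 in limma-voom and 45 without the filter, against 39 in the test reported.

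Of 24 named genes, 19 changed sign, without a call, when a library or a replicate number was left out. Single libraries were left out of the fit without the block, so the groups then differed in replicate numbers. Replicate numbers were left out of the blocked fit. In the latter, Isg15, H2-K1, H2-D1 and Psmb8 kept their sign, while Tap1, Nlrc5, Ifit1 and Ifit3, among others, did not. The log2 fold changes of the 19 genes, over both kinds of omission, ran as follows, from lowest to highest. H2-K1 ran from −0.11 to 0.57, H2-D1 from −0.205 to 0.66, Tap1 from −0.15 to 0.74, Psmb8 from −0.14 to 1.05, Psmb9 from −0.040 to 1.23 and Nlrc5 from −0.46 to 0.62. Isg15 ran from −1.62 to 1.20, Ifit1 from −1.19 to 1.35, Ifit3 from −2.60 to 2.09, Rsad2 from −1.98 to 2.82, Ifitm3 from −0.26 to 0.45, Bst2 from −0.57 to 0.88 and Rtp4 from −1.27 to 0.73. Irf7 ran from −1.94 to 1.59, Irf9 from −0.54 to 0.69 and Stat2 from −0.41 to 0.36. Ifnar1 ran from −0.074 to 0.24, Ifnar2 from −0.022 to 0.32 and Ifngr1 from −0.18 to 0.025.

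Under the other settings 5 genes changed sign, also without a call. Ifit3 was −0.17 with the replicate block, −0.51 in DESeq2 with the block, −0.88 in limma-voom and −0.17 without the filter but with the block, against 0.27. Bst2 was 0.13, 0.14, 0.14 and 0.14 in the same order, against −0.01. Stat2 was −0.013, −0.0094, −0.017 and −0.0055, against 0.02. Irf9 was 0.046 with the block, 0.0071 in DESeq2, 0.051 in DESeq2 with the block, 0.005 with RLE factors, 0.0043 without the filter, 0.0345 in limma-voom and 0.054 without the filter but with the block, against −0.0028. Rsad2 was −0.11 in limma-voom, against 0.99.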
